A study of Mus musculus with 14 samples.

Results

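The genes described here are 41 genes of glucose and pyruvate breakdown in the mouse. They were listed by name, as enzymes and carriers of these pathways, and run from the glucose transporters through glycolysis and lactate dehydrogenase to the entry of pyruvate into mitochondria, the citrate cycle and the malate-aspartate shuttle. The table of read counts held 39017 genes, and all 41 members passed the filter on low counts that kept 21298 genes for testing.

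RNA came from the hippocampus of male C57BL/6 mice aged 8 to 12 weeks that carried PV-Cre and a Cre-dependent EGFP-L10a allele, so that a tagged ribosomal protein was made in cells in which the parvalbumin (PV) promoter drives Cre. Pulling down the tagged ribosomes (TRAP) gave the RNA bound to them, from the 2 hippocampi of a mouse for each sample. Non-defeated mice (n = 4, numbers 1, 6, 9 and 11) were housed in pairs across a divider and never met an aggressor. Defeated mice went through chronic social defeat stress (CSDS), 10 days with 5 min of attack a day by a CD-1 aggressor, and were then called resilient (n = 4, numbers 3, 5, 7 and 8) or susceptible (n = 3, numbers 2, 4 and 10) from a social interaction test. Input (n = 3, numbers 12, 13 and 14) was total RNA of hippocampal homogenate from non-defeated mice. Mice of every group, stressed or not, came from the PV-Cre and EGFP-L10a cross, and the tag marks any cell with PV-Cre activity in the tissue taken.

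Glycolysis splits glucose to pyruvate in the cytosol and yields ATP and NADH. Pyruvate is either reduced to lactate by lactate dehydrogenase, which restores NAD, or carried into mitochondria, where the pyruvate dehydrogenase complex feeds it to the citrate cycle as acetyl-CoA. The malate-aspartate shuttle moves the electrons of cytosolic NADH into mitochondria. PV interneurons fire at high rates, carry many mitochondria, and are known for a high demand for energy.

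Library totals were 64110214 to 94726962 counts. Values are CPM, counts scaled to the library total after TMM normalization, and the same per kilobase of exon (RPKM) where levels of different genes are compared. In TRAP against input, all 10 PV interneuron markers rose, with a summed level of 4280 to 4630 CPM in non-defeated TRAP and 605 to 714 CPM in input. Of 10 markers each, 9 of excitatory neurons, 9 of astrocytes, 10 of oligodendrocytes, 10 of microglia and 6 of blood and choroid plexus fell. Rises were also seen outside the PV list. They were 3 of 10 markers of other interneurons (with 6 lower), summing to 462 to 666 CPM in non-defeated TRAP against 423 to 458 CPM in input, 3 of 10 of endothelium and vessel wall, at 44.6 to 59.1 against 20.9 to 29.1 CPM, and 3 of 10 of thalamus. Excitatory neuron markers still summed to 779 to 1050 CPM in non-defeated TRAP, against 2150 to 2520 CPM in input. By their sum, thalamus markers set 4 libraries apart. They were non-defeated mice 11 and 9 at 608 and 753 CPM, resilient mouse 7 at 1168 CPM and input 14 at 585 CPM. In the other TRAP libraries that sum was 303 to 402 CPM, and Gbx2, a thalamic transcription factor, was at 0 in resilient mouse 3 and susceptible mouse 2. Susceptible mouse 10, at 402 CPM, had 77.2 CPM of Prkcd, 19.4 of Tcf7l2, 16.6 of Tnnt1 and 9.54 of Synpo2. The rest of these libraries had at most 30.2, 6.01, 4.45 and 2.09 CPM of them. Rora, Gbx2, Ramp3 and Adarb1 were not above the rest in mouse 10. Leaving out the 4 libraries highest in this sum thus keeps mouse 10.

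The first comparison, TRAP against input in non-defeated mice, asks how the RNA of these enzymes in the TRAP pulldown differs from that of the whole hippocampus. Of the 41 members, 26 rose in TRAP and 4 fell, by edgeR's quasi-likelihood test with Benjamini-Hochberg adjustment over all genes tested (adjusted p under 0.05). Among all genes, 27.4% rose and 27.6% fell, while 63.4% of members rose and 9.76% fell. The median log2 fold change was 0.54 over members, with 33 positive, and -0.041 over all genes. Once the 4 libraries highest in thalamus markers were left out, it was 0.38 over members, with 30 positive, and -0.083 over all genes. All 3 malate-aspartate enzymes rose, as did 9 of 12 citrate cycle genes, 5 of 8 genes of mitochondrial pyruvate entry, 5 of 6 of lower glycolysis and 3 of 6 of upper glycolysis. Neither glucose transporter passed the test. The members that fell were Hk2, Pfkl, Idh2 and Suclg2, each of which has a more abundant isozyme or partner subunit among the members. Input was total RNA and TRAP RNA is ribosome-bound, so cell type and ribosome loading cannot be told apart. In bulk samples, fewer cells of a type and less RNA per cell cannot be told apart either.

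**Figure D1:**
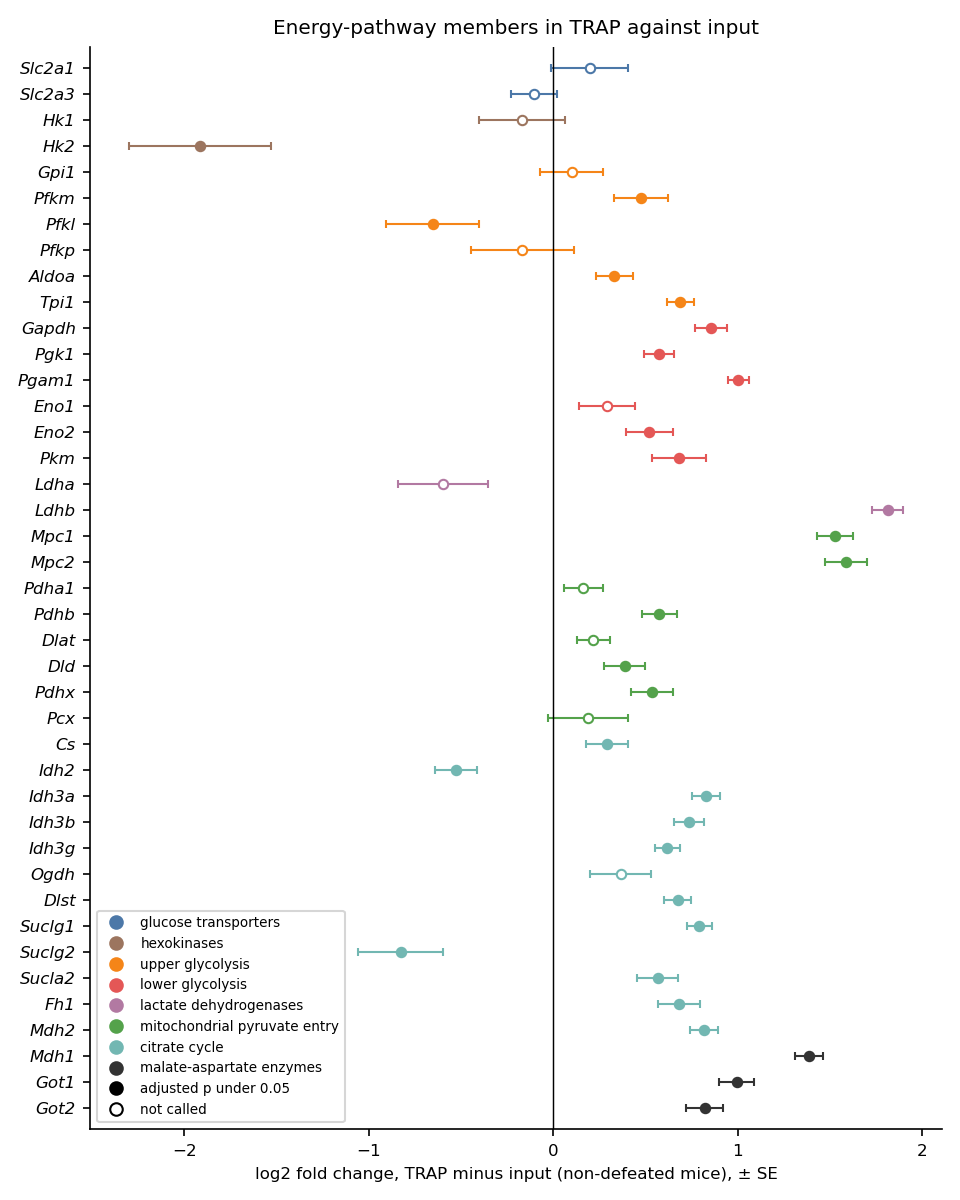
Log2 fold change of each of the 41 members in TRAP against input (points with SE bars), ordered and coloured by pathway step, with filled points for an adjusted p under 0.05. Ldhb, Mpc2, Mpc1 and Mdh1 have the highest values and Hk2 the lowest.

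Glucose enters neurons mainly through GLUT3, encoded by Slc2a3, and glia and vessels through GLUT1, encoded by Slc2a1. Slc2a3 was measured at 41.6 ± 5.36 CPM (SD, n = 4) in non-defeated TRAP and 44.8 ± 3.70 CPM (SD, n = 3) in input. Slc2a1 was at 15.9 ± 4.41 CPM and 13.9 ± 1.15 CPM in the same groups. The groups overlapped for both transporters. Hexokinase traps glucose in the cell by phosphorylating it, and Hk1 is the usual brain form. Hk1 stood at 337 ± 107 CPM in TRAP and 379 ± 16.7 CPM in input, also with overlap. TRAP libraries 1 and 6 had 216 and 282 CPM, below the input range of 365 to 397 CPM. The thalamus-high libraries 9 and 11 had 449 and 399 CPM, above it. The part of thalamus markers in this split was not tested.

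Hk2, a hexokinase best known from muscle, had the lowest level per length of the 41 in TRAP (0.230 RPKM). Input libraries 12, 13 and 14 had 5.35, 5.79 and 4.43 CPM, and non-defeated TRAP libraries 1, 6, 9 and 11 had 0.976, 1.33, 1.65 and 1.54 CPM. Every TRAP value lay below every input value. In edgeR, Hk2 fell with a log2 fold change of -1.92 (SE 0.384, adjusted p = 0.000712), or 3.77-fold lower. Per length, the ratio of Hk2 to Hk1 was 0.0170 to 0.0227 in the input libraries and 0.00523 to 0.00675 in TRAP, again without overlap.

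Phosphofructokinase, the main control point of glycolysis, has muscle (Pfkm), liver (Pfkl) and platelet (Pfkp) subunits. Pfkm rose from 296 ± 22.5 to 412 ± 83.4 CPM (log2 0.48, SE 0.147, adjusted p = 0.0133). Pfkl fell from 444 ± 27.1 to 282 ± 81.7 CPM (log2 -0.65, SE 0.251, adjusted p = 0.0389). Pfkp, at 307 ± 11.9 CPM in input and 273 ± 99.0 CPM in TRAP, did not pass the test. It was split like Hk1, with 179 and 199 CPM in TRAP libraries 1 and 6 and 377 and 339 CPM in 9 and 11. The Pfkl to Pfkm ratio per length was 0.863, 0.734 and 0.668 in the input libraries and 0.313, 0.303, 0.358 and 0.379 in TRAP. Every TRAP library thus held less Pfkl for its Pfkm than any input library, and the same was true of Pfkp to Pfkm (0.136 to 0.189 in TRAP, 0.248 to 0.267 in input). Pfkl and Pfkp, with 6675 and 13401 bp of exon, are longer than Pfkm with 3340 bp. Against short genes, long genes as a whole stood lower in TRAP than in input, as given below. Hk2, lower in TRAP for its Hk1, is the shorter of that pair (5969 against 8532 bp). The part of length in these ratios was not tested. Pfkm shares exon sequence with Senp1 on the opposite strand, and the kit does not mark strand.

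Of the remaining genes of upper glycolysis, Tpi1, which interconverts the triose phosphates, rose 1.61-fold (adjusted p = 1.83e-06). Aldoa, the aldolase that splits fructose bisphosphate, rose 1.26-fold (adjusted p = 0.0121). Gpi1, the isomerase after hexokinase, stood at 590.2 ± 91.4 CPM in TRAP and 551 ± 14.3 CPM in input, with overlap. Per length, Aldoa was the highest of the 41 members in non-defeated TRAP, at 1517 RPKM, followed by Ldhb at 1400 and Mdh1 at 1162 RPKM.

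In lower glycolysis, Pgam1, which shifts the phosphate of phosphoglycerate, had the smallest p. Its mean level went from 944 ± 17.8 to 1894 ± 53.3 CPM (log2 1.0, SE 0.0585, adjusted p = 1.15e-08). Gapdh, the NADH-making dehydrogenase, rose 1.81-fold, Pgk1, the first ATP-making kinase of the pathway, 1.49-fold, Eno2, the neuronal enolase, 1.44-fold, and Pkm, the last kinase, 1.60-fold. Eno1, the widely expressed enolase, did not pass the test at 2049 ± 341 CPM in TRAP against 1674 ± 46.5 CPM in input. The Eno2 to Eno1 ratio per length was 0.831 to 0.845 in TRAP and 0.703 to 0.727 in input. Gapdh has 102 genes with near-identical transcripts in the annotation (at least 150 aligned bases at 95% identity), so its counts are uncertain for reads that match several of them. How the counting treated such reads was not examined. Eno1 has 4 near-identical genes, Pgk1 has 3, and Pgam1 and Pkm have 2 each.

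Lactate dehydrogenase forms tetramers of a muscle-type subunit (Ldha), which favours lactate formation, and a heart-type subunit (Ldhb), which favours lactate use. Their upstream sequences are shown because this pair parted most between TRAP and input. Each line gives 250 bases before a start site of RefSeq on GRCm38.p6, 5′ to 3′ on the gene's strand, with capitals for ACGTG or GCGTG on either strand, the core of the hypoxia response element. Where CACGTG is capital, ACGTG lies on both strands. Ldha has 2 start sites in the table, of which the upstream one is shown (chr7:46845554-46845803, plus strand). Ldhb has 1 (chr6:142507958-142508207, minus strand).
Ldha: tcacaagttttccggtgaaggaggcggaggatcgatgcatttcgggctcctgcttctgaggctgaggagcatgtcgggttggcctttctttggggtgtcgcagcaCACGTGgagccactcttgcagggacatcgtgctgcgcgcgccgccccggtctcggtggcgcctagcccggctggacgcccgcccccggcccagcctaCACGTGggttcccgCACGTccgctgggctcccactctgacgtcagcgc
Ldhb: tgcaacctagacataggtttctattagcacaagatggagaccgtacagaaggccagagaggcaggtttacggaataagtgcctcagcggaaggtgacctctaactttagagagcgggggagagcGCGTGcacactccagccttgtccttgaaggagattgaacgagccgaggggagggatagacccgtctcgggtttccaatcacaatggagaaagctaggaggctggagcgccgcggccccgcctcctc

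Of these stretches, the one of Ldha holds 5 matches and the one of Ldhb holds 1. Of the 39 members with an entry, 29 had this core in a window, each window running from 250 bases before to 50 after a start. By windows it was 40 of 56 for members (71.4%), against 14380 of 32851 for all genes (43.8%). Windows of a gene can overlap and share matches, as among the 6 of Ogdh, so they are not independent. A match is a run of letters, not a measured site.

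The gene Ldhb (ENSMUSG00000030246) spans chr6:142490249-142507957 on mm10, minus strand. It was read at 600.4, 599 and 676 CPM in input libraries 12, 13 and 14, and at 2012, 2253, 2350 and 2177 CPM in TRAP libraries 1, 6, 9 and 11. All 4 TRAP values lay far above the input values. The log2 fold change was 1.81 (SE 0.0838, edgeR adjusted p = 2.35e-09), or 3.52-fold, with the smallest p among the members. Ldha was read at 556, 581 and 529 CPM in input and 282, 332, 453 and 399.7 CPM in TRAP. Those groups did not overlap, but the log2 fold change of -0.60 (SE 0.246) missed the threshold at an edgeR adjusted p of 0.0518. Within a library, the ratio of Ldhb to Ldha per length was 2.28, 2.18 and 2.69 in input and 15, 14.3, 10.9 and 11.5 in TRAP. The mean ratios were 2.37 and 12.8 (exact permutation p = 0.0286, 2-sided, the smallest that 4 against 3 libraries allow, adjusted p = 0.143 over 40 ratio tests). Ldha has 3310 bp of exon and Ldhb 1570 bp, and the part of length in their ratio was not tested. Ldha has 4 near-identical genes in the annotation and Ldhb has 1.

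**Figure D2:**
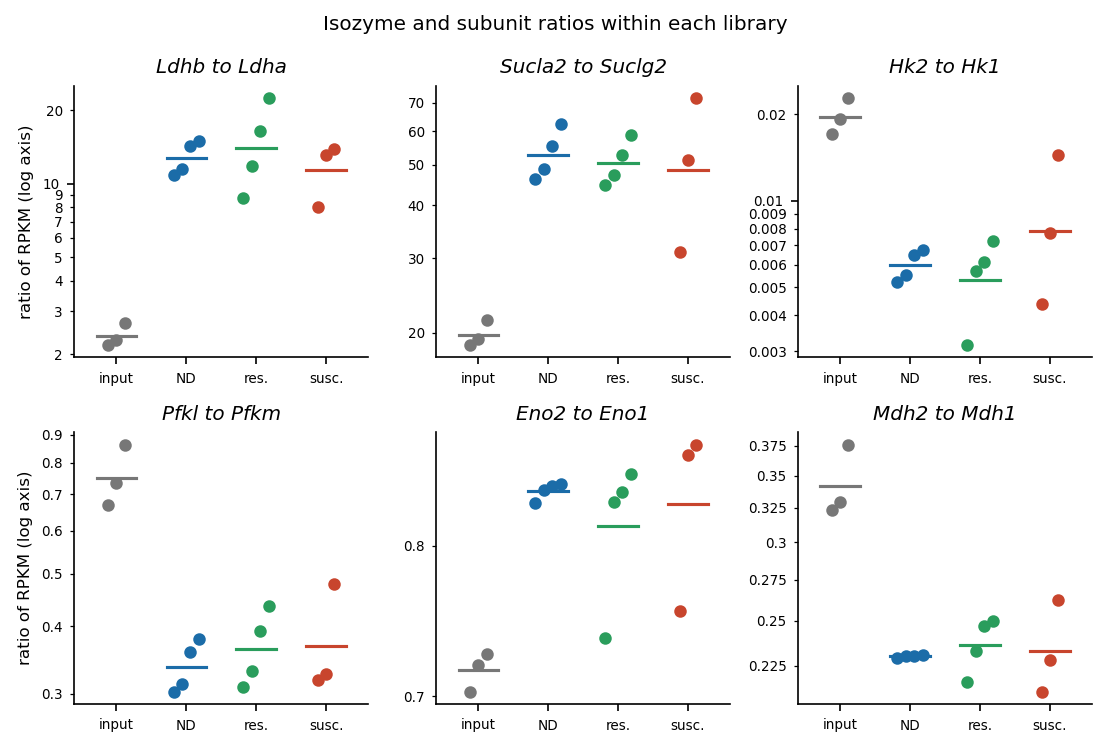
Ratio of RPKM between isozymes or partner subunits in each library (points, log axis), with the geometric mean of each group as a line, for input, non-defeated (ND), resilient and susceptible libraries. Input stands apart from non-defeated TRAP in all 6 panels, and resilient and susceptible libraries overlap non-defeated ones.

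Of the genes of mitochondrial pyruvate entry, Mpc1 and Mpc2 form the pyruvate carrier of the inner membrane and had the largest rises after Ldhb. Mpc1 was at 237, 251 and 241 CPM in input and 754, 706, 647 and 695 CPM in TRAP (log2 1.53, SE 0.0972, adjusted p = 2.24e-08). Mpc2 was at 123, 128 and 135 CPM in input and 412, 418, 345 and 368 CPM in TRAP (log2 1.59, SE 0.115, adjusted p = 6.23e-08). Both carriers were thus higher in every TRAP library than in any input library. Mpc1 has 1 near-identical gene in the annotation, and its exons overlap 4930506C21Rik on the other strand. The Mpc2 to Mpc1 ratio per length was 0.15 in input and 0.156 in TRAP, with overlapping libraries.

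Of pyruvate dehydrogenase itself, Pdhb, the beta subunit of its first enzyme, rose 1.49-fold, Pdhx, the binding protein, 1.45-fold, and Dld, the dihydrolipoamide dehydrogenase, 1.31-fold. The alpha subunit Pdha1 stood at 369 ± 52.4 CPM in TRAP against 330 ± 6.82 CPM in input and did not pass the test. Dlat, the acetyltransferase of the complex, was at 242 ± 28.3 CPM against 208 ± 4.75 CPM (adjusted p = 0.0505). Pcx, pyruvate carboxylase, known mainly from astrocytes in brain, was at 81.4 ± 20.6 CPM against 71.5 ± 7.25 CPM. Of 7 regulators of the complex tested, 4 fell and 0 rose. They were the kinases Pdk1, Pdk2 and Pdk4, which switch the complex off, and Pdpr, a regulator of its phosphatase. The input libraries held 62.4, 63.3 and 58.8 CPM of Pdk1 and the TRAP libraries 26.4, 23.0, 23.4 and 26.4 CPM, far below (log2 -1.31, SE 0.121, edgeR adjusted p = 6.25e-07).

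In the citrate cycle, the 3 genes of the NAD-linked isocitrate dehydrogenase rose together, Idh3a 1.77-fold, Idh3b 1.66-fold and Idh3g 1.54-fold. Idh2, the NADP-linked mitochondrial enzyme, went the other way. It had 49.1, 49.1 and 49.7 CPM in input and 33.7, 32.0, 36.0 and 35.2 CPM in TRAP, groups that did not overlap. Idh2 fell with a log2 fold change of -0.53 (SE 0.113, edgeR adjusted p = 0.00121). Per length, Idh3a, Idh3b and Idh3g stood at 134, 137 and 108 RPKM in TRAP and Idh2 at 13.2 RPKM.

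Succinyl-CoA ligase also had members on both sides. Its ADP-linked subunit Sucla2 rose 1.48-fold and its shared subunit Suclg1 1.73-fold, while the GTP-linked Suclg2 fell from 12.5 ± 0.914 to 7.04 ± 1.77 CPM (log2 -0.83, SE 0.232, adjusted p = 0.00767). The Sucla2 to Suclg2 ratio per length was 18.7 to 21.4 in input and 46.3 to 62.4 in TRAP. Citrate synthase (Cs) rose 1.22-fold, fumarase (Fh1) 1.60-fold, and Dlst, the succinyltransferase of the oxoglutarate dehydrogenase complex, 1.60-fold. Ogdh, the first enzyme of that complex, did not pass the test at 544 ± 125 CPM in TRAP against 422 ± 27.6 CPM in input.

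Mdh2 and Mdh1 are the mitochondrial and cytosolic malate dehydrogenases. Mdh1 was read at 1081, 1153 and 1187 CPM in input and 2768, 3060, 3117 and 2985 CPM in TRAP. All TRAP libraries lay far above the input range. Mdh1 rose with a log2 fold change of 1.39 (SE 0.0737, edgeR adjusted p = 6.33e-09). Mdh2 rose 1.76-fold, and its ratio to Mdh1 per length was 0.229 to 0.231 in TRAP and 0.323 to 0.376 in input. Exons of Mdh1 overlap Wdpcp on the other strand. The stretch upstream of Mdh1 (chr11:21571935-21572184, minus strand) is printed because this gene had the smallest p after Ldhb, with the same capitals, and holds 1 match.
Mdh1: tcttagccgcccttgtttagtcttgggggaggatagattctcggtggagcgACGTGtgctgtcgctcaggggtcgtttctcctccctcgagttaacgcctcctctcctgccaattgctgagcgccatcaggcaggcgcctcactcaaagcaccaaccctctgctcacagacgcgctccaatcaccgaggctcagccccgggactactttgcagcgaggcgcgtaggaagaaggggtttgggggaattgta

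Got1 and Got2, the cytosolic and mitochondrial aspartate aminotransferases, rose 1.99-fold and 1.77-fold. Got1 was at 944 ± 104 CPM in TRAP and 474 ± 18.7 CPM in input, and the Got2 to Got1 ratio per length was 0.369 to 0.388 in TRAP and 0.404 to 0.454 in input. Other genes of these pathways, 50 of the 54 listed being tested, rose in 12 cases and fell in 15, with a median log2 fold change of -0.19. Succinate dehydrogenase, an enzyme of the cycle and of respiration, gave the smallest p among those that rose, with Sdhc at 126 ± 4.13 CPM in input and 269.6 ± 18.2 CPM in TRAP (adjusted p = 4.44e-08) and Sdhb at 265 ± 4.32 and 536 ± 28.1 CPM (adjusted p = 1.15e-07). Gpd1l, related to the glycerol-3-phosphate dehydrogenases, fell from 164 ± 1.59 to 82.8 ± 14.6 CPM (adjusted p = 1.21e-05). Picked after their values were seen, Gpd1 and Gpd2 of the glycerol phosphate shuttle also fell, with log2 fold changes of -1.83 and -1.13, while the malate-aspartate carriers Slc25a11 and Slc25a12 rose by 0.46 and 0.37 on the log2 scale.

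The comparisons between TRAP groups ask whether stress outcome goes with a different level of the RNA of these enzymes in the TRAP pulldown. They share libraries, since each group enters more than 1 of them. Between resilient and non-defeated mice, 0 members passed the adjusted test in edgeR or in DESeq2, and 0% of all genes passed it in edgeR. At an unadjusted p under 0.05, 1 member was lower and 0 were higher, against 2.16% and 2.22% of all genes. The median log2 fold change over members was 0.073, with 36 positive and 5 negative, and 0.0023 over all genes with 50.5% positive. Groups overlapped for every member, while 2.35% of all genes had groups that did not overlap. Once the 4 libraries highest in thalamus markers were left out, the median was 0.22 and 7 members were higher at an unadjusted p under 0.05. Of all genes, 8.09% then had such a p in either direction, against 4.38% with all libraries. The adjusted test was then passed by 0 members and by 0 of all 21450 genes. Endothelial markers, 10 of 10 of which had higher values in resilient mice with 0 past the adjusted test, summed to 51.6 to 106 CPM against 44.6 to 59.1 CPM. Blood and choroid plexus markers also had higher values in 10 of 10 cases, 0 past the adjusted test, with sums of 404 to 1030 against 319 to 522 CPM. The part of these markers in the members' values was not tested.

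Mpc1 had the smallest p. It was read at 678, 586, 626 and 574 CPM in resilient mice 3, 5, 7 and 8, and at 754, 706, 647 and 695 CPM in non-defeated mice 1, 6, 9 and 11. Only resilient mouse 3 reached into the non-defeated range. Its log2 fold change was -0.19 (SE 0.0860, unadjusted p = 0.0484 and adjusted p = 1 in edgeR). Its partner Mpc2 was at 410.5, 345, 356 and 342 CPM in resilient mice, within or just below the non-defeated range given above, with a log2 fold change of -0.086 (SE 0.101).

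Of the members with positive values, Idh2 and Ldhb had the smallest p. Idh2 was at 34.3, 41, 38.8 and 42.4 CPM in resilient and 33.7, 32.0, 36.0 and 35.2 CPM in non-defeated mice (log2 0.19, SE 0.105). Ldhb was at 2439, 2240, 2617 and 2293 CPM in resilient and 2012, 2253, 2350 and 2177 CPM in non-defeated mice (log2 0.12, SE 0.0732). Resilient mouse 3 lay inside the non-defeated range for Idh2, and resilient mice 5 and 8 did so for Ldhb.

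Between susceptible and non-defeated mice, again 0 members passed the adjusted test in edgeR or DESeq2, where 0.0376% of all genes did in edgeR. At an unadjusted p under 0.05, 5 members were lower (12.2%) and 0 were higher, against 6.7% and 6.61% of all genes. The median over members was -0.12, with 33 negative and 8 positive, and 0.010 over all genes. That median was 0.021, with 25 members positive, once the 4 libraries highest in thalamus markers were left out, and 1 member was then higher and 0 lower at an unadjusted p under 0.05, which 5.6% of all genes had in either direction. In either direction, that count was 5 members and 13.3% of all genes with all libraries. It was 14 members and 17.7% of genes without susceptible mouse 10, 11 and 18.8% without non-defeated mouse 1, 3 and 8.93% without non-defeated mouse 9, and 3 and 9.22% without susceptible mouse 2. Blood and choroid plexus markers stood higher in susceptible mice in 10 of 10 cases, 2 of them past the adjusted test, and summed to 1330 to 1980 CPM against 319 to 522 CPM. Endothelial markers were also higher in 10 of 10 cases (63.4 to 94.9 against 44.6 to 59.1 CPM) and thalamus markers lower in 10 of 10 (320 to 402 against 303 to 753 CPM), with 0 of either past the adjusted test. The part of these markers in the members' values was not tested.

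Dlat had the smallest p of this comparison. Susceptible mice 2, 4 and 10 had 178, 202 and 202 CPM, and non-defeated mice 1, 6, 9 and 11 had 212, 224, 267 and 265 CPM. The groups did not overlap, with non-defeated mouse 1 nearest to the susceptible mice. Such a gap was found for 2 members downward (4.88%) and 0 upward, against 4.4% and 4.21% of all genes. The log2 fold change was -0.32 (SE 0.0887, unadjusted p = 0.00293 and adjusted p = 0.19 in edgeR). Idh3a, the catalytic subunit of its enzyme, was at 535, 614 and 585 CPM in susceptible and 621, 649, 732 and 713 CPM in non-defeated mice, apart by a narrow gap. Its log2 fold change was -0.23 (SE 0.0736, adjusted p = 0.228 in edgeR). The other members at an unadjusted p under 0.05 were Ogdh (log2 -0.48), Got1 (-0.26) and Got2 (-0.21), and their groups overlapped.

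Of the members with positive values, Slc2a1 and Idh2 had the smallest p. Slc2a1 was at 21.6, 14.03 and 21.3 CPM in susceptible and 14.3, 11.03, 17.0 and 21.4 CPM in non-defeated mice (log2 0.25, SE 0.207). Idh2 was at 32.2, 34.6 and 46.0 CPM in susceptible mice (log2 0.13, SE 0.113), and only the value of mouse 10 lay above the non-defeated range. Without that mouse the value for Idh2 was -0.037. The groups overlapped for both genes.

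**Figure D3:**
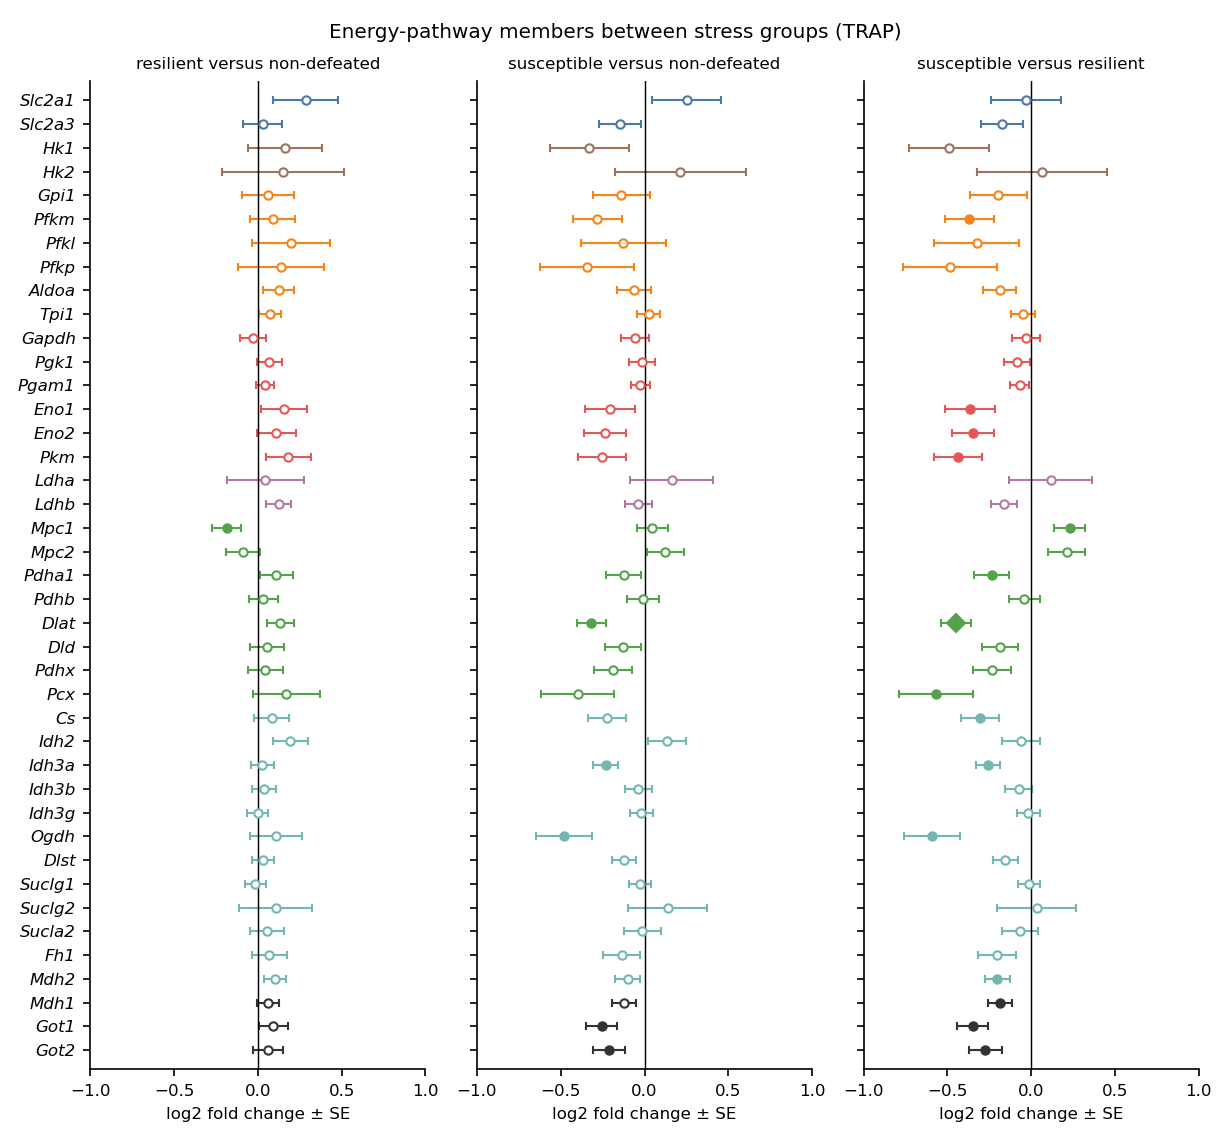
Log2 fold change (points with SE bars) of each of the 41 members in the 3 comparisons between TRAP groups, ordered by pathway step, with filled points for an unadjusted p under 0.05 and a diamond for an adjusted p under 0.05. Between susceptible and resilient mice 36 of 41 members are below 0, and Dlat is the only diamond.

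Between susceptible and resilient mice, the median log2 fold change over members was -0.18, with 36 negative and 5 positive, and 0.0028 over all genes. At an unadjusted p under 0.05, 14 members were lower (34.1%) and 1 was higher (2.44%), against 10.1% and 10.8% of all genes. By the adjusted test 1 member fell, Dlat (2.44%), where 1.89% of all genes passed in either direction. DESeq2 called 3 members, which were Dlat, Got1 and Ogdh, where 6.3% of genes with an adjusted p passed in either direction. Without susceptible mouse 2 the count at an unadjusted p under 0.05, in either direction, was 5 instead of 15 members, and 14.7% instead of 20.9% of all genes. For 7 members every susceptible library lay below every resilient one (Pdha1, Dlat, Dld, Idh3a, Ogdh, Dlst and Got1), and for 0 members above. Those 7 are 17.1% of members, against 7.44% of all genes below and 7.71% above. Without the 4 libraries high in thalamus markers the median was -0.16, with 35 of 41 negative. In that fit 0 members passed the adjusted test, as did 0 of all 21450 genes. All 10 thalamus markers had lower values in susceptible mice, 0 of them past the adjusted test, and 4 of 10 blood and choroid plexus markers rose. Markers of other interneurons had higher values in susceptible mice in 9 of 10 cases, 0 past the adjusted test, with sums of 540 to 908 against 466 to 820 CPM. The part of these markers in the members' values was not tested.

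Dlat (ENSMUSG00000000168, chr9:50634633-50659780 on mm10, minus strand) transfers the acetyl group within the pyruvate dehydrogenase complex. It was read at 178, 202 and 202 CPM in susceptible mice 2, 4 and 10 and at 255, 262, 278.9 and 265 CPM in resilient mice 3, 5, 7 and 8. The groups stood well apart, and the spread within each was narrower than the gap. The log2 fold change was -0.45 (SE 0.0889, edgeR adjusted p = 0.0356), or 1.37-fold lower. The call was lost without resilient mouse 3 (edgeR adjusted p = 0.0505), 7 (0.0976) or 8 (0.0933), or susceptible mouse 2 (0.143) or 4 (0.057). It was also lost with the compared groups alone (edgeR adjusted p = 0.136), TRAP libraries alone (0.102) or without the 4 thalamus-high libraries (0.105). The reported fit draws its estimate of spread from all 14 libraries, the 3 of input included. Of 18 alternatives, 10 kept the call, and the log2 fold change stayed between -0.48 and -0.38 in all 18. No overlapping or near-identical gene was found for Dlat in the annotation. Its upstream stretch (chr9:50659781-50660030, minus strand) is shown because Dlat alone passed the test, and it holds none of the motifs searched, which were the core above, AAGGTCA and GCATGCG on either strand. AAGGTCA, the estrogen-related receptor half-site, was found in 7.14% of member windows (4 genes) and 4.72% of all. GCATGCG, a core of the NRF1 motif, was found in 7.14% (3 genes) and 3.58%.
Dlat: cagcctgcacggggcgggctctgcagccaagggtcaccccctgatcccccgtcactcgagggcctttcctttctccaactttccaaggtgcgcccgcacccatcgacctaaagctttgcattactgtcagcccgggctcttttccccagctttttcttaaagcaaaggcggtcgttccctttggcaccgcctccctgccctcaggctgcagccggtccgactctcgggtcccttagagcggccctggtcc

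The other subunits of the complex also had negative values. Pdha1 was at 339 ± 42.6 CPM in susceptible and 399 ± 14.3 CPM in resilient mice (log2 -0.23, unadjusted p = 0.0424 in edgeR), and Dld at 144 ± 12.8 and 164 ± 11.5 CPM (log2 -0.18). Pdhx had a log2 fold change of -0.23 and Pdhb of -0.041. Pcx, which makes oxaloacetate from pyruvate, had -0.57 (SE 0.218, unadjusted p = 0.0207 in edgeR). Among the regulators of the complex, Pdpr was nearest to the threshold (log2 -0.64, SE 0.157, edgeR adjusted p = 0.052). Of the 50 other pathway genes tested 0 passed it, and 9 were lower and 1 higher at an unadjusted p under 0.05.

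The pyruvate carrier stood on the other side. Mpc1 was at 677, 842 and 649 CPM in susceptible mice 2, 4 and 10, against 678, 586, 626 and 574 CPM in resilient mice (log2 0.23, SE 0.0926, unadjusted p = 0.0254 and adjusted p = 0.175 in edgeR). Mpc2 was at 426, 487 and 349 CPM against 410.5, 345, 356 and 342 CPM (log2 0.21, SE 0.109). The groups overlapped for both, and susceptible mouse 4 was the highest of the 11 TRAP libraries for both.

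Got1 had the smallest p after Dlat. Susceptible mice 2, 4 and 10 had 702, 841 and 831 CPM, and resilient mice 3, 5, 7 and 8 had 932, 1009, 1074 and 1013 CPM. The groups did not overlap, but the log2 fold change of -0.35 (SE 0.0927) missed the threshold at an edgeR adjusted p of 0.0648. Mdh1 (log2 -0.18), Got2 (-0.27) and Mdh2 (-0.20), the other enzymes of the shuttle, had unadjusted p-values of 0.0213, 0.0134 and 0.0152 in edgeR.

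Oxoglutarate and isocitrate dehydrogenase had the lowest p-values within the citrate cycle. Ogdh was at 370.5, 341 and 456 CPM in susceptible and 462, 587, 662 and 633 CPM in resilient mice (log2 -0.59, SE 0.167, edgeR adjusted p = 0.0754), with susceptible mouse 10 and resilient mouse 3 side by side at the border. Idh3a was at 535, 614 and 585 CPM against 710.3, 676, 718 and 660.1 CPM (log2 -0.26, SE 0.0737, edgeR adjusted p = 0.0767). Dlst was at 178 ± 1.78 and 198 ± 11.2 CPM and Cs at 377 ± 50.7 and 466 ± 50.1 CPM. Idh3b, Idh3g, Suclg1 and Sucla2 had log2 fold changes of -0.074, -0.018, -0.011 and -0.067.

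**Figure D4:**
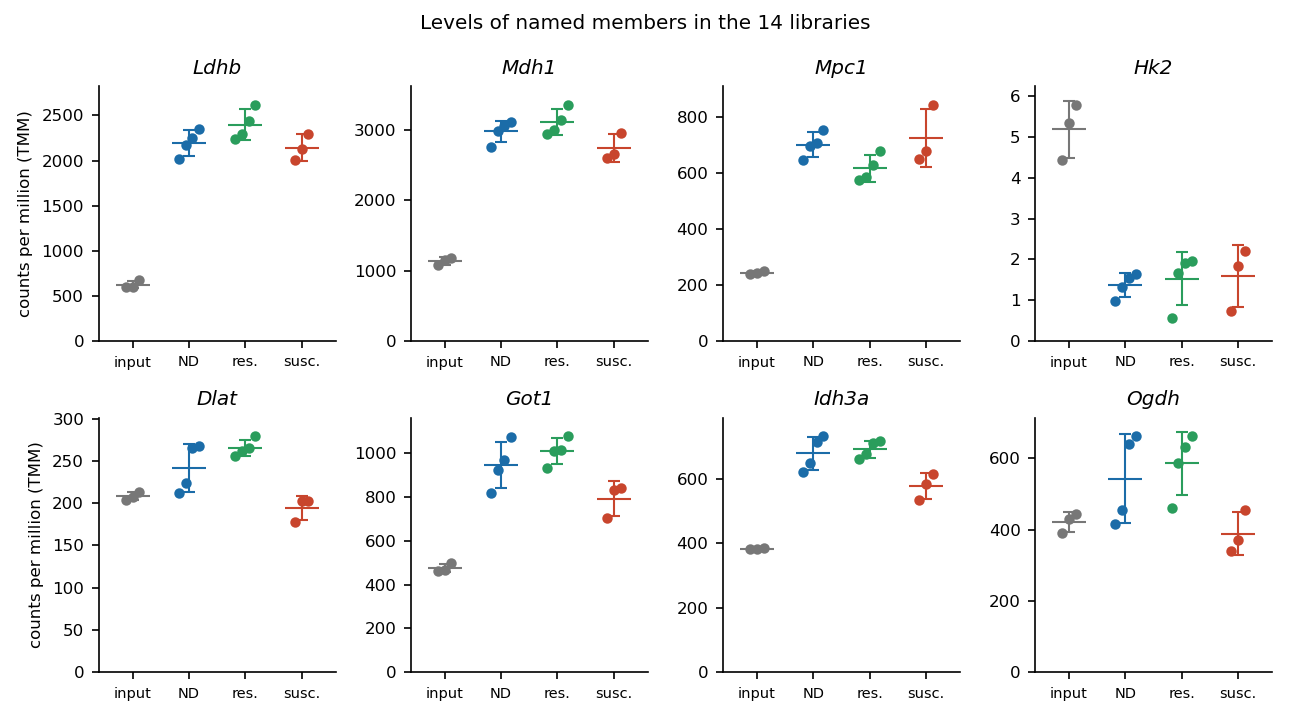
TMM-scaled CPM of 8 members in the 14 libraries (points), with the mean and SD of each group, for input, non-defeated (ND), resilient and susceptible libraries. For Dlat, Got1, Idh3a and Ogdh the susceptible libraries lie below the resilient ones.

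In glycolysis, Pkm (log2 -0.44), Pfkm (-0.37), Eno1 (-0.36) and Eno2 (-0.35) had unadjusted p-values under 0.05, and their edgeR adjusted p-values were 0.117, 0.17, 0.184 and 0.145. Pkm was at 2678 ± 447 CPM in susceptible and 3624 ± 498 CPM in resilient mice. Gapdh, Tpi1, Pgk1 and Pgam1 had log2 fold changes of -0.031, -0.049, -0.085 and -0.067. Hk1 had -0.49 (SE 0.238) and Ldhb -0.16 (SE 0.0793), neither with an unadjusted p under 0.05. The isozyme ratios that parted TRAP from input overlapped between all stress groups, and the smallest exact permutation p among them was 0.286 (Got2 to Got1, susceptible against resilient). The Ldhb to Ldha ratio per length, for example, was 13.1, 13.9 and 8.03 in susceptible and 22.4, 8.78, 16.4 and 11.8 in resilient mice.

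The level of the members as a whole varied among TRAP libraries of the same group. The median deviation of the 41 from their TRAP mean (log2) was -0.17, -0.069, 0.19 and 0.11 in non-defeated mice 1, 6, 9 and 11. It was -0.083, 0.11, 0.18 and 0.087 in resilient mice 3, 5, 7 and 8, and -0.22, -0.11 and -0.012 in susceptible mice 2, 4 and 10. Mice 1, 2, 3, 4 and 6 were thus below the mean whatever their group, mice 5, 7, 8, 9 and 11 above it, and mouse 10 close to it. The same 5 libraries had negative values of a second measure, the median deviation of genes with exons over 5000 bp minus that of genes under 2000 bp, which was -0.21 to -0.10 in them and 0.012 to 0.24 in the other 6. In the input libraries this measure was 0.538 to 0.645, also as a deviation from the TRAP mean. With an offset for gene length in the fit, the susceptible against resilient median over members was -0.16. The TRAP against input median was then 0.637, with 36 of 41 positive. Ratios of genes of unlike length, given above, were not adjusted for this measure. The part of this measure in the members' values was not tested further.

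**Figure D5:**
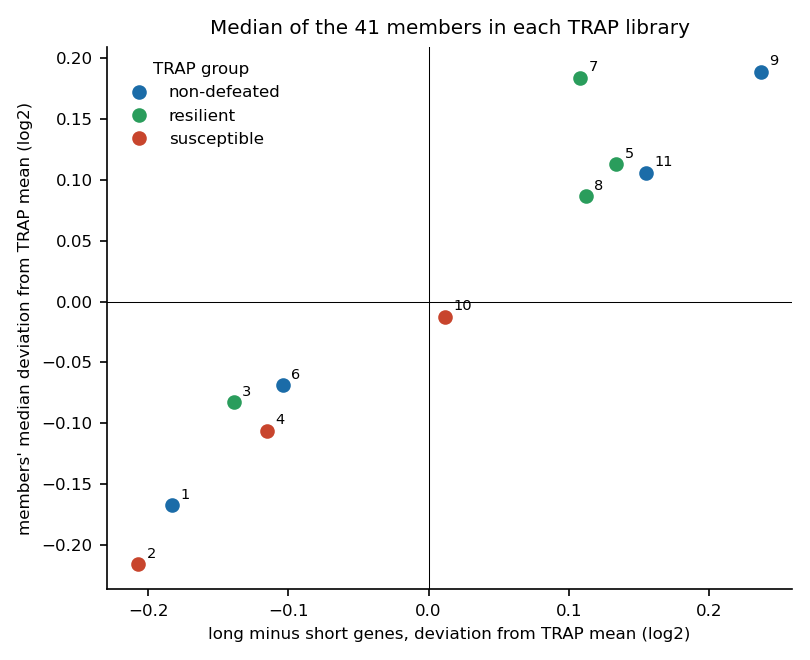
Median log2 deviation of the 41 members from the TRAP mean against the difference in median deviation between long and short genes in each of the 11 TRAP libraries, labelled by sample number and coloured by group. Libraries 1, 2, 3, 4 and 6 are negative on both axes, 10 is near 0 on both and the rest are positive on both.

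What the sample numbers mark is not given in the sources used here, so each comparison was also made among numbers 1 to 6 and among 7 to 11. Resilient mouse 5, at 0.113 in the median deviation above, falls among the lower numbers, whose other libraries were below the TRAP mean. This split thus does not part the libraries as their medians do, and it does not remove that difference. Between susceptible and resilient mice the members' median log2 difference was -0.22 in the lower numbers and -0.13 in the higher, with 8 of 41 positive in each. Dlat had -0.45 and -0.43 in these sets, Got1 -0.34 and -0.33, Idh3a -0.27 and -0.23, and Ogdh -0.55 and -0.50. The libraries of these 4 genes do not overlap between the groups, so their sign in both sets was fixed and only the sizes are new. Between resilient and non-defeated mice the median was 0.16 in the lower numbers and -0.0035 in the higher, and between susceptible and non-defeated mice it was -0.040 and -0.14. Some of these sets hold 1 library of a group, so no test was made within them.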

How the data were processed

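TRAP and input RNA was made into cDNA with SMART-Seq v4, libraries with Nextera XT, and 150-base single reads without strand information were sequenced on a NextSeq instrument. The authors deposited a table of raw read counts per gene, made per the labels with STAR (2.5.3a in the submitters' processing notes) on mm10 and HTSeq. The annotation release is not given in the sources used here. Counts were scaled by TMM and filtered with filterByExpr. All 14 libraries entered a single fit in edgeR 4.0.16 (R 4.3.3), tested by quasi-likelihood with Benjamini-Hochberg adjustment over 21298 genes. Rows without a gene symbol held 0.824% of counts. Values per library are given for the 2 members with the smallest p in each direction of a comparison and for isozyme pairs. Of other pathway genes, the 2 in each direction with the smallest p past the threshold are named. Isozyme ratios were compared by 2-sided exact permutation tests over libraries. DESeq2 1.42.0, other scalings, filters and left-out libraries were alternatives. Exon lengths, gene overlaps and near-identical copies came from the GENCODE mouse release 21. The code was tested on simulated data. Replicates differed by more than counting error, and p-values measure the spread between these samples. The members and gene lists were chosen with earlier results of these data known.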

Additional observations from a re-analysis of the deposited data

Results flagged for a closer look

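In the 4 resilient libraries, 3 members had 1 library far from the others, each time resilient mouse 3 at the low end. Pfkm was at 361 CPM there against 459 to 466 CPM, Gapdh at 2330 against 2840 to 2880 CPM, and Cs at 391 against 486 to 494 CPM. These were 3 of 82 groups of 4 libraries examined (3.66%), and chance gives about 1 in 20. The change of Dlat against non-defeated mice differed between susceptible and resilient mice by -0.451 on the log2 scale, which is the test of susceptible against resilient mice given above.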

How the results depend on the processing

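No paired analysis was made, because no sample number is shared between groups and what the numbers mark is not given. Whether an input and a TRAP library came from the same mouse is thus not known. Between susceptible and resilient mice, the number of members past the adjusted threshold was 1 as reported, 3 with the likelihood ratio test, 3 with DESeq2, 2 with sample number as a covariate, and 0 with the compared groups alone, with TRAP libraries alone or without the 4 libraries high in thalamus markers, the last chosen after seeing the data. Leaving out 1 library gave 0 (without resilient mice 3, 7 or 8 or susceptible mice 2 or 4) to 3 (without susceptible mouse 10). At an unadjusted p under 0.05 it gave 5 (without susceptible mouse 2) to 22 (without resilient mouse 3) members, against 15, where 14.7% and 23.3% of all genes had such a p, against 20.9%. Other pathway genes past the adjusted threshold numbered 0 as reported, 2 with the likelihood ratio test, 3 with DESeq2 and 2 with at least 10 counts in every library. Over all genes the reported 403 became 1099, 1004, 308, 126 and 542 with the likelihood ratio test, DESeq2, RLE scaling, no filter and at least 10 counts. It became 0, 550, 178, 1 and 282 with the compared groups alone, length offset, GC offset, TRAP libraries alone and number covariate. Without the thalamus-high libraries it was 0, and without 1 library it was 6 to 1058. As a share of genes, the reported 1.89% became 5.16% with the likelihood ratio test, 6.3% with DESeq2 and 1.36% with the number covariate. That share was 4.88% without susceptible mouse 10. Between resilient and non-defeated mice, 1 member had an unadjusted p under 0.05 as reported. The count was 0 with the likelihood ratio test, RLE, no filter, GC offset or TRAP libraries alone, and 2 with the number covariate. It was 7 without the thalamus-high libraries and 0 to 4 without 1 library. The latter was 4 without non-defeated mouse 9, 3 without resilient mouse 3, and 0 without non-defeated mice 1 or 6 or resilient mice 5, 7 or 8. Of all genes, 4.38% had such a p as reported, 8.09% without the thalamus-high libraries, and 3.24% to 7.23% without 1 library. The share was 7.23% without non-defeated mouse 9 and 4.85% without resilient mouse 3. Between susceptible and non-defeated mice the 5 became 1 without the thalamus-high libraries and 3 to 14 without 1 library (14 without susceptible mouse 10). Of all genes, 13.3% had such a p as reported, 5.6% without the thalamus-high libraries, and 8.93% to 18.8% without 1 library. In that comparison Idh2, at 0.134, ranged from -0.0369 without susceptible mouse 10 to 0.234 without susceptible mouse 2. Members called between TRAP and input numbered 24 to 34. The share of all genes called there was 55% as reported. It ranged from 39% (no filter) to 61.4% (at least 10 counts in every library). The cause of these changes was not tested. The 4 or fewer libraries a group limit the precision.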
